A study of Mus musculus with 66 samples.

Results

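Histone regions at 60 mouse genes of calcium and cyclic nucleotide signalling were taken from 7 deposited lists of regions that differed between groups. A region was counted as a gene's when the authors had assigned it to that gene by name, and the 60 genes were listed by name. They received 440 of 57678 listed regions, and 55 of the 60 genes had at least 1. Camkk2, Nfatc2, Nfatc3, Adcy9 and Prkar2b had none. The immunoprecipitations of the variant H3.3 gave 44 of these regions, at 29 genes, CATCH-IT gave 396 at 53 genes, and H3.1/2 gave 0 of 7.

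All samples were from C57bl/6 mice. Primary cortical neurons from E16.5 embryos, kept 8 days in vitro, were left unstimulated (control) or given KCl for 30 min, 2 hr or 5 hr, with 3 libraries in each group. The exception in the labels was the 30 min control group, with 4 libraries, of which 1 was a repeat of the first. The list for 30 min holds 3 control values, and whether they include that repeat is not known from the sources used here. Hippocampal nuclei from mice of about 7 weeks, normally housed or after 4 weeks of environmental enrichment, were sorted on the neuronal protein NeuN. The NeuN-positive groups had 2 libraries each and the NeuN-negative groups 3. Input libraries numbered 1 in each H3.3 culture and NeuN-negative group, 2 in each NeuN-positive group and 3 in each CATCH-IT group. Per the labels, the cultures were biological triplicates and the hippocampal work was done in duplicate, although 3 NeuN-negative libraries stand in each group. H3.3 was precipitated with an H3.3 antibody, whereas CATCH-IT, run at 5 hr, was pulled down on streptavidin beads and reads histones newly placed into chromatin. In the 30 min, 2 hr, CATCH-IT and hippocampal libraries no sequencing lane held both groups of a comparison, so lane and treatment cannot be told apart there. At 5 hr each H3.3 lane held 1 control and 1 KCl library.

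Calcium that enters an active neuron, or leaves its internal stores through inositol trisphosphate receptors and ryanodine receptors, binds calmodulin and so switches on CaM kinases and the phosphatase calcineurin. Phospholipase C makes the inositol trisphosphate, together with the diacylglycerol that activates protein kinase C and that diacylglycerol kinases remove. Cyclic AMP, made by adenylate cyclases and broken down by phosphodiesterases, acts through protein kinase A, and cyclic GMP acts through protein kinase G. These pathways carry synaptic activity to transcription factors of the nucleus, among them CREB, AP-1 and NFAT.

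The lists set limits on what can be read from them. Each holds only regions at least 3-fold apart between group means (smallest absolute log2 fold change 1.59 in the authors' deposited tables, 1.60 for H3.1/2), so a gene without a region was not shown to be unchanged. In every listed H3.3 region the library values of the groups do not overlap, members or not. The values are the authors' normalised read numbers per library, packed without library names. The same lists cannot show levels of cell type markers: of 22 marker genes, Snap25 and Syt1 (neurons) were lost and Pecam1 (endothelium) gained at 30 min, Aldh1l1 (astrocytes) and Mbp (oligodendrocytes) were gained in NeuN-positive nuclei, and P2ry12 (microglia) was lost in NeuN-negative nuclei. Of the 5 neuron markers among them, 4 were found by name in the annotation. In pooled chromatin, more H3.3 per cell and more cells with H3.3 at a region cannot be told apart.

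The single place where member regions of different H3.3 lists overlapped was an intron of Prkar1b, which encodes a regulatory subunit of protein kinase A. A region at chr5:139555541-139555740 (mm9, intron 4 of 10) lost H3.3 after 30 min of KCl. A region at chr5:139555681-139555880 gained H3.3 in NeuN-positive nuclei after enrichment. They share 60 bases, given in capitals below on the plus strand, 5′ to 3′, while the gene lies on the minus strand. No other region of the 457 in the 30 min list overlapped any of the 1642 in the NeuN-positive list.
Prkar1b lost at 30 min: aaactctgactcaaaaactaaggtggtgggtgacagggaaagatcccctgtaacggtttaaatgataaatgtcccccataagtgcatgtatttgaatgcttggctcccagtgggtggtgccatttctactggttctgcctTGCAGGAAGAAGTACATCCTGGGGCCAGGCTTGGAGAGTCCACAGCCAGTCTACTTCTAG
Prkar1b gained in NeuN-positive: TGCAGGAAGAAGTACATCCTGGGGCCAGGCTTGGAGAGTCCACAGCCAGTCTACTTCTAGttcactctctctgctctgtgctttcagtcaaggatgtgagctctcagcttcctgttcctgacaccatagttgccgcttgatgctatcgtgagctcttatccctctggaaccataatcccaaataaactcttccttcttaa

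At 30 min the Prkar1b region read 14.0, 14.2 and 12.7 normalised reads in the control libraries and 2.59, 6.31 and 3.09 in the KCl libraries, a fall of 3.40-fold between means. In NeuN-positive nuclei its neighbour read 7.53 and 2.05 in normally housed mice and 17.3 and 17.98 in enriched mice, a 3.68-fold rise. The KCl libraries are low at the first place and the enriched libraries high at the second, and the groups are apart in both, as in every listed H3.3 region. The low groups rest on few reads, 12 in the 3 KCl libraries and 7 in the 2 normally housed libraries. The authors' deposited tables give adjusted p of 0.0266 and 0.0356. The 3-fold margin was lost without the first KCl value at 30 min and without the second normally housed value in NeuN-positive nuclei. The tables were normalised apart, so the sizes are not compared with each other. Of the 169 words of 32 bases in each region, 0 at the first and 3 at the second had an exact copy elsewhere in the genome.

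After KCl, the members' H3.3 regions were mostly losses at the early times. At 30 min 7 of 8 member regions were listed as lost and 1 as gained, beside 79.9% and 20.1% of all 457 listed. At 2 hr 4 of 6 were lost and 2 gained, beside 85.6% and 14.4% of 689. At 5 hr 3 of 6 were listed as lost and 3 as gained, beside 55.8% and 44.2% of 667. The 30 min and 5 hr shares were near those of the whole lists, and the 2 hr shares, from 6 regions, were 33.3% gained beside the 14.4%.

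After enrichment, gains were the larger share in either population. NeuN-positive nuclei gained H3.3 at 10 and lost it at 6 of 16 member regions, beside 71.8% and 28.2% of 1642. NeuN-negative nuclei gained it at 6 and lost it at 2 of 8, beside 70.7% and 29.3% of 1196. The members again followed the direction of the list they stood in. The class counts below pool lists whose gained share ran from 14.4% (2 hr) to 71.8% (NeuN-positive). Over all 4651 listed H3.3 regions 54.0% were gained. The direction of a class with few regions therefore depends on which lists they came from.

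All 38 member regions outside the 5 hr list had an adjusted p of 0.05 or less in the authors' deposited tables. Little can be read from that, since 98.5% (30 min), 99.6% (2 hr), 97.8% (NeuN-positive) and 99.8% (NeuN-negative) of all listed regions did. At 5 hr 0 of 6 passed, beside 3.00% of the list, with adjusted p from 0.0683 to 0.110 in the authors' deposited table. The 5 hr regions are therefore given below as values. Single libraries carried part of the margin. Without the third KCl value 3 of the 7 losses at 30 min were still 3-fold apart. Without the second normally housed value 6 of the 10 NeuN-positive gains still were. The 5 hr regions of Atp2b2, Camk2a, Plcb1 and Prkca were each under 3-fold without at least 1 of their values. Relative to input, all 42 member regions with finite ratios went the same way, as did 98.9% of all listed with finite ratios. Of the 42, 37 did so by 2-fold or more (88.1%, beside 91.9% of all listed). Those under 2-fold were Plcb4 and the intron 2 region of Adcy5 at 30 min, Camk2a and Prkcd at 5 hr, and Prkcd in NeuN-positive nuclei. The ratios are 1 value per group, resting on 1 input library, or 2 in NeuN-positive nuclei, and carry no spread.

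**Figure D1:**
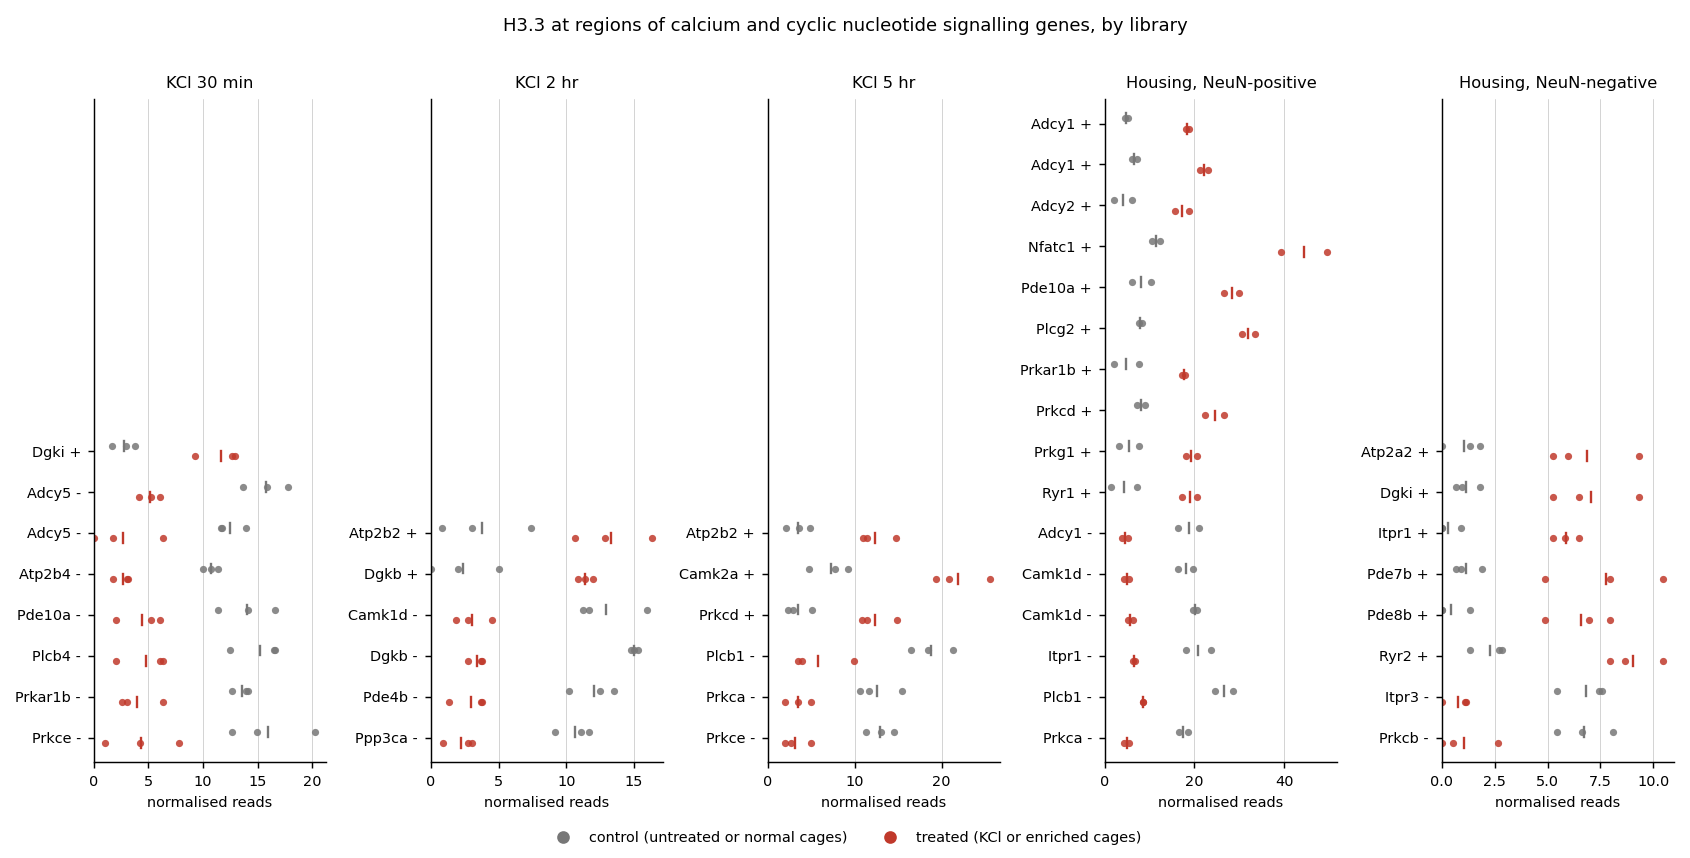
Normalised reads per library (x axis, linear, each panel on its own scale) at the 44 H3.3 regions of member genes, grouped by comparison. Grey points are control libraries, red points treated libraries, short bars the group means, and + or - after the gene marks a gained or lost region; no region has overlapping groups.

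The calcium release channels had H3.3 regions in the hippocampal lists and 0 in the 3 KCl lists. Itpr1, the main neuronal inositol trisphosphate receptor, was listed in both populations in opposite directions, at places 20.0 kb apart. In NeuN-positive nuclei intron 24 of 61 fell from 18.1 and 23.6 normalised reads to 6.28 and 6.85, and was under 3-fold without the second normally housed value. In NeuN-negative nuclei intron 13 rose from 0, 0 and 0.900 to 5.82, 5.28 and 6.51. The second rests on 1 read in all normally housed libraries against 19 in the enriched ones, so its 19.6-fold ratio has a weak base. The sequences are shown because they are different stretches of the gene, with CG dinucleotides in capitals, on the plus strand, which is the gene's strand; the lost region is chr6:108341181-108341420 and the gained region chr6:108321021-108321220.
Itpr1 lost in NeuN-positive: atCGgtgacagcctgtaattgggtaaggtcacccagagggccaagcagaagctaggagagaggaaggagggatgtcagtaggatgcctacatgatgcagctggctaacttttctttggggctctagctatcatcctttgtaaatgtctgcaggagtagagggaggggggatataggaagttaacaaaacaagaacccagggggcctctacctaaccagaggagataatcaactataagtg
Itpr1 gained in NeuN-negative: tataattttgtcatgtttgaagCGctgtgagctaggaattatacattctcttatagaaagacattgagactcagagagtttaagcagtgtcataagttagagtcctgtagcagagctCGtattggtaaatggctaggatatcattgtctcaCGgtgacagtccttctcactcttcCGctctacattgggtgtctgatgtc

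The ryanodine receptors, which release calcium in response to calcium, gave the 2 H3.3 regions that touch coding exons. Ryr1 gained H3.3 in NeuN-positive nuclei, with values between 1.51 and 7.19 in normally housed mice and between 17.3 and 20.6 in enriched mice. Without the first normally housed value it was no longer 3-fold apart. Ryr2 gained H3.3 in NeuN-negative nuclei, from 2.84, 1.35 and 2.71 to 10.5, 7.93 and 8.67 normalised reads. The Ryr1 region, chr7:29882301-29882500, is coding over 197 of its 200 bases, with a GC content of 60.5%. It is shown on the plus strand with coding bases in capitals, and the gene lies on the minus strand.
Ryr1 gained in NeuN-positive: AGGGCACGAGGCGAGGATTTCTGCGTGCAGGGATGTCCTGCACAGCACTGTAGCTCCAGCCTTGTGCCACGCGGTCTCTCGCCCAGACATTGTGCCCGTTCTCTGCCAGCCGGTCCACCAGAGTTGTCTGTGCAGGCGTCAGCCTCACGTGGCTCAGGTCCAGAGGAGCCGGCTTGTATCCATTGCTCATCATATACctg

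Itpr3 fell in NeuN-negative nuclei, from 7.58, 7.43 and 5.43 to 1.16, 0 and 1.08 normalised reads in intron 2 of 57. Itpr2 and Ryr3 had no H3.3 region. In CATCH-IT the 6 channel genes had 44 regions, 28 gained and 16 lost, where 57.3% of all 53020 listed were gained and 42.7% lost. Itpr1 had 7 gained and 1 lost, whereas Itpr2 had 6 of each and Ryr2 7 and 6. The store sensors Stim1 and Stim2, which open plasma membrane channels when stores are empty, had no H3.3 region and 3 gained and 5 lost CATCH-IT regions.

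The calcium pumps, which clear calcium from the cytosol, had 4 H3.3 regions. Atp2b2 encodes a plasma membrane pump, and its regions were listed as gained at 2 hr and at 5 hr, 167.8 kb apart. At 2 hr intron 2 rose from 3.05, 0.830 and 7.36 to 12.9, 10.6 and 16.3. The control libraries differed widely, and without the second value the means were less than 3-fold apart. At 5 hr intron 11 read 2.05 to 4.85 in the control and 10.9 to 14.8 in the KCl libraries.

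Atp2b4, another plasma membrane pump, fell at 30 min from 11.4, 9.99 and 10.7 to 1.73, 3.15 and 3.09. Its region, chr1:135649421-135649620, is 238 bp from an annotated transcript start inside the gene, in intron 2 of 20. Input was 0 there in the KCl group, so the authors' deposited table gives an infinite ratio to input. This region holds the AP-1 letters, printed below in capitals. Atp2a2, the pump of the endoplasmic reticulum, rose in NeuN-negative nuclei from 0, 1.35 and 1.81 to 9.31, 5.28 and 5.96. Here 5.28 in the second enriched library stands for 2 reads, since 1 read was worth 2.64 in it. In CATCH-IT the pumps had 10 gained and 8 lost regions, 12 of them at Atp2b2.
Atp2b4 lost at 30 min: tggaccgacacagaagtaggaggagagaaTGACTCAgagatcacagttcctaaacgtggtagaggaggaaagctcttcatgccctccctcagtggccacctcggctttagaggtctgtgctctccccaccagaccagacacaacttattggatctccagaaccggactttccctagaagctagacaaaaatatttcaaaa

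The phospholipases C gave 1 gained and 3 lost H3.3 regions. Plcg2, coupled to tyrosine kinase receptors, had the smallest adjusted p of the NeuN-positive members, 0.00954 in the authors' deposited table. Its 360 bp region in intron 7 of 32 rose from 7.53 and 8.22 to 30.6 and 33.4, with 13 reads in the normally housed and 78 in the enriched libraries. Plcb1, an enzyme under G protein-coupled receptors, was listed as lost in 2 comparisons, in intron 2 each time and 121.6 kb apart. In NeuN-positive nuclei it fell from 28.6 and 24.7 to 8.63 and 8.56, and was under 3-fold without the first normally housed value. At 5 hr it read 16.49 to 21.3 in the control and 3.51 to 9.92 in the KCl libraries, where the third KCl value stands above the other two. Plcb4 fell at 30 min from 16.48, 12.5 and 16.6 to 6.05, 6.31 and 2.06, and was under 3-fold without the third KCl value. In CATCH-IT the class had 26 gained and 22 lost regions, and Plcb1 alone 12 and 15.

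The diacylglycerol kinases Dgkb and Dgki had 3 gained and 1 lost H3.3 region. At 2 hr Dgkb had opposite directions in 1 list, with a gained and a lost region 18.9 kb apart in intron 23 of 25. The gained region rose from 2.04, 5.00 and 0 to 11.9, 11.4 and 10.9. The lost region fell from 15.3, 14.99 and 14.7 to 3.68, 3.79 and 2.72, with control libraries close together. They differ in composition, at 53.5% and 38.5% GC, with 0 and 3 CG dinucleotides, which are in capitals below. The sequences are the plus strand, the gene's own, at chr12:39206881-39207080 and chr12:39225961-39226220. Of the 32-base words of the gained region 25.4% had a copy elsewhere, up to 26 in all, and of the lost region 0.
Dgkb gained at 2 hr: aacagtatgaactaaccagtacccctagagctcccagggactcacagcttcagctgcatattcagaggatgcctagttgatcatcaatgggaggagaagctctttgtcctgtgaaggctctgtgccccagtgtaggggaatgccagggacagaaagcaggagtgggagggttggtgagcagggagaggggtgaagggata
Dgkb lost at 2 hr: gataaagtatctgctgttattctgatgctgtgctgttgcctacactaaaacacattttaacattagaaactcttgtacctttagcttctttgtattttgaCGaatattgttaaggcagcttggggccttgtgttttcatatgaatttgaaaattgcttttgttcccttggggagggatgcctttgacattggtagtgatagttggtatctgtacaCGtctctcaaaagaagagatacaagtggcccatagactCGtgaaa

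Dgki was gained in both of its lists. At 30 min it was the single member gain, from 3.80, 1.67 and 2.93 to 12.97, 12.6 and 9.26 in intron 2 of 33. In NeuN-negative nuclei intron 1 rose from 0.95, 0.680 and 1.81 to 9.31, 5.28 and 6.51, at a place 48.9 kb from the first. In CATCH-IT Dgkb had 9 gained and 5 lost regions and Dgki 5 and 8.

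The protein kinases C had 7 H3.3 regions, 2 gained and 5 lost, pooled over lists of which 54.0% was gained. Prkce and Prkca, both widely expressed in brain, were listed as lost in 2 comparisons each. Prkce fell at 30 min from 20.3, 14.99 and 12.7 to 7.78, 4.21 and 1.03, with input at 0 in the KCl group. It was under 3-fold without the third KCl value. At 5 hr another place in intron 1 of Prkce read 11.3 to 14.6 against 1.97 to 4.96. Of the 32-base words of that 5 hr region 18.9% had copies elsewhere. Prkca fell in NeuN-positive nuclei, from 16.6 to 18.5 in normally housed mice to 4.28 to 5.49 in enriched mice. At 5 hr its region at chr11:107995401-107995600, in intron 3 of 16, read 10.6 to 15.4 against 1.98 to 4.92. That region also holds the AP-1 letters.
Prkca listed as lost at 5 hr: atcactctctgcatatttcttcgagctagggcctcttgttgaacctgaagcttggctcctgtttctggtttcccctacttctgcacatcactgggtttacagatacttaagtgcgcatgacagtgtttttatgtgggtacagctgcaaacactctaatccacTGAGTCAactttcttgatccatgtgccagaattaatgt

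Prkcd was the protein kinase C on the gained side. In NeuN-positive nuclei intron 1 rose from 9.03 and 7.19 to 26.7 and 22.3, and it was under 3-fold without the second normally housed value and also without the first enriched value. At 5 hr a region 191 bp from an internal transcript start read 2.36 to 5.13 in the control and 10.8 to 14.9 in the KCl libraries. Prkcb, a kinase of the classical calcium-dependent group, fell in NeuN-negative nuclei from 6.63, 8.11 and 5.43 to 0, 2.64 and 0.540, which is 25 reads against 2. In CATCH-IT the class had 21 gained and 25 lost regions, and 9 of those lost were at Prkcb, which had 1 gained.

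Camk1d, a CaM kinase, had H3.3 losses and CATCH-IT gains, but in different comparisons. All 3 of its H3.3 regions were lost, at 2 hr of KCl or in NeuN-positive hippocampal nuclei. CATCH-IT was run on cultures at 5 hr of KCl, where Camk1d had no H3.3 region. At 2 hr intron 2 of 10 fell from 11.2, 11.7 and 16.0 to 1.84, 4.55 and 2.72. In NeuN-positive nuclei intron 1 fell from 19.6 and 20.6 to 6.28 and 5.14 at one place, and from values between 16.4 and 19.6 to values between 4.28 and 5.49 at another 22.9 kb away. In CATCH-IT all 12 of its regions were gained, the largest number in 1 direction only among the members. Camk2a, the abundant postsynaptic kinase, was listed as gained at 5 hr in intron 1 (chr18:61089261-61089560), with 4.72 to 9.23 in the control and 19.3 to 25.6 in the KCl libraries. Relative to input that difference was small, with ratios of 1.13 and 1.38 in the authors' deposited table. Camk2b, Camk2d, Camk2g and Camk4 had CATCH-IT regions and no H3.3 region. The class had 20 gained and 8 lost in CATCH-IT.

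Calcineurin and NFAT gave 2 H3.3 regions. Ppp3ca, the main catalytic subunit of calcineurin in neurons, fell at 2 hr from 9.16, 11.7 and 11.1 to 0.920, 3.03 and 2.72 in intron 1. Nfatc1, a transcription factor that calcineurin sends to the nucleus, rose in NeuN-positive nuclei from 10.5 and 12.3 to 49.5 and 39.4. This was the longest H3.3 member region and the one with the most reads, 420 bp with 109 reads in the enriched libraries, in the last intron (chr18:80805581-80806000). In CATCH-IT Nfatc1 had 4 gained regions and none lost, Ppp3ca 4 and 2, Ppp3cb 0 and 2, and Ppp3cc 1 and 0.

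The adenylate cyclases had 3 gained and 3 lost H3.3 regions. Adcy1, a calmodulin-stimulated cyclase, had all 3 of its regions in NeuN-positive nuclei, a loss between a pair of gains. The loss in intron 4 of 19 went from 21.1 and 16.4 to 3.92 and 5.14. The gain near the gene's end, in an untranslated exon, went from 6.02 and 7.19 to 21.2 and 23.1, and the gain in intron 1 from values between 4.52 and 5.14 to values between 18.1 and 18.8. Adcy2 rose in the same nuclei from 6.02 and 2.05 to 15.7 and 18.8, and without the second normally housed value it was under 3-fold.

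Adcy5, the main cyclase of the striatum, lost H3.3 at both of its places at 30 min. In intron 1 of 20 it fell from 17.8, 15.8 and 13.7 to 6.05, 5.26 and 4.12. This region was under 3-fold without the first control or the third KCl value. In intron 2 Adcy5 fell from 14.0, 11.7 and 11.7 to 1.73, 6.31 and 0, where the second KCl library stands above the others. Adcy3 and Adcy8 had CATCH-IT regions only. The class had 13 gained and 12 lost in CATCH-IT, with Adcy8 at 6 and 3 and Adcy2 at 2 and 5.

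Among the cyclic nucleotide dependent kinases, Prkg1, the protein kinase of cyclic GMP, rose in NeuN-positive nuclei from 7.53 and 3.08 to 18.1 and 20.6, in intron 3 of 17. Exact copies elsewhere covered 46.6% of the words of this region, the highest share of the 44. Without the second normally housed value it was under 3-fold. In CATCH-IT Prkg1 had 13 gained and 14 lost regions along 1196 kb, Prkar1b had 3 of each, and Prkacb, a catalytic subunit of protein kinase A, 1 and 2.

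The phosphodiesterases gave 5 H3.3 regions, 3 gained and 2 lost. Pde10a, an enzyme of striatal neurons, fell at 30 min from 11.4, 14.2 and 16.6 to 6.05, 5.26 and 2.06 in its last, untranslated exon, and rose in NeuN-positive nuclei from 6.02 and 10.3 to 26.7 and 30.0 in an intron 145.2 kb upstream. The first was under 3-fold without the third control or the third KCl value, and the second without the first normally housed value. Pde4b, an enzyme specific for cyclic AMP, fell at 2 hr from 10.2, 12.5 and 13.5 to 3.68, 3.79 and 1.36. The KCl libraries were below the control libraries in both genes, and the third KCl library was the lowest.

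Pde7b and Pde8b gained H3.3 in NeuN-negative nuclei. Pde7b rose from 1.90, 0.680 and 0.900 to 10.5, 7.93 and 4.88. Pde8b rose from 0, 1.35 and 0 to 6.98, 7.93 and 4.88, which is 2 reads against 18. Pde1a, Pde1c, Pde2a, Pde3a, Pde4d, Pde8a and Pde9a had CATCH-IT regions and no H3.3 region. In CATCH-IT the class had 59 gained and 44 lost, of which Pde4d held 23 and 15, and Pde9a had 0 and 3.

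Of the 29 genes with H3.3 regions, 10 were in 2 lists or more. The share was 34.5%, beside 13.2% of all 2281 genes named in the H3.3 lists. Median gene length was 181.2 kb over all 60 members and 15.5 kb over all protein-coding genes. The lengths of the 29 and of the 2281 genes are not given here. The part of length in the higher share was not tested. The regions went the same way in 7 of them (Atp2b2, Dgki and Prkcd gained, Camk1d, Plcb1, Prkca and Prkce lost) and opposite ways in 3 (Itpr1, Pde10a and Prkar1b). Over all 302 genes in 2 lists or more, all regions went the same way in 47.4%. The places were not the same: of 11 pairs of regions from different lists in 1 gene, the Prkar1b pair overlapped, and the other gaps ran from 15.1 to 167.8 kb with a median of 134.3 kb. Over all regions, the 5 H3.3 lists held 1 further overlap, between the NeuN-positive and NeuN-negative lists, which is not at a member gene.

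**Figure D2:**
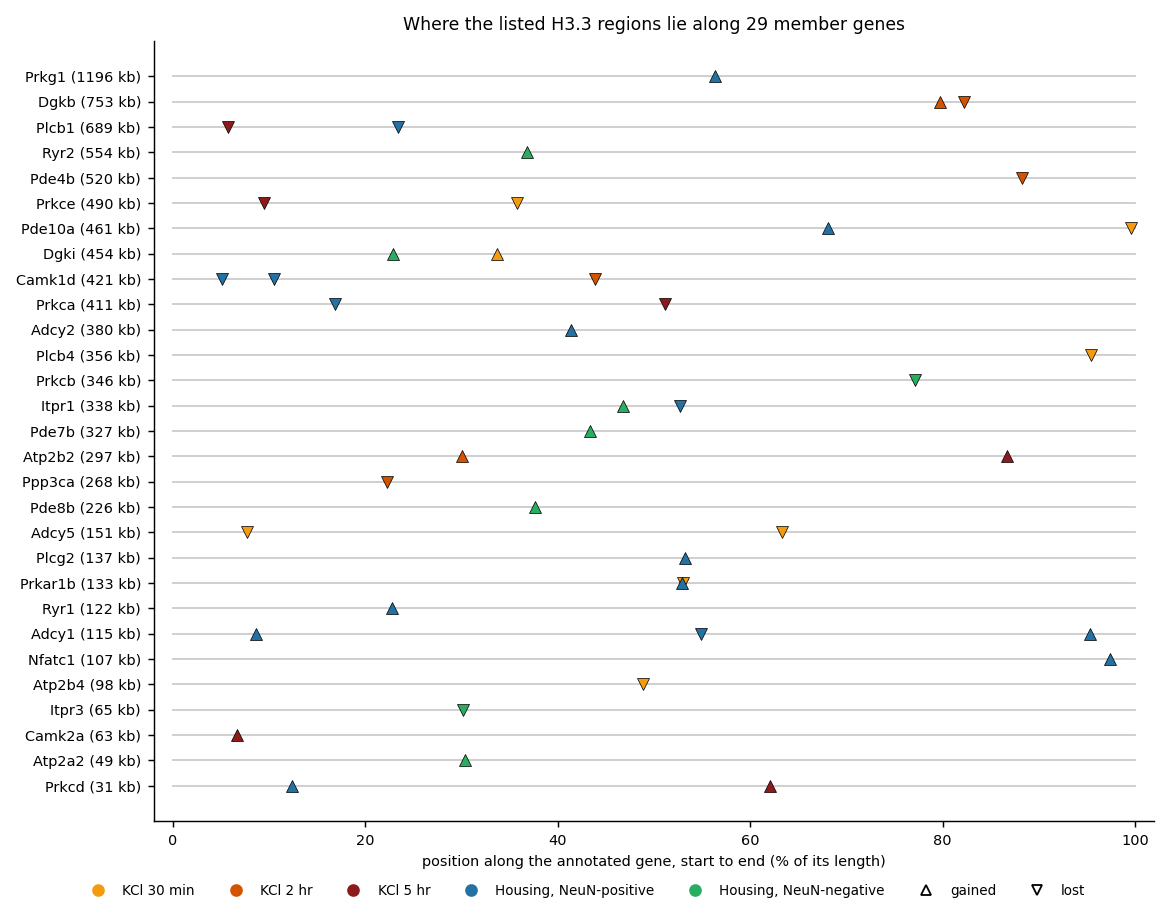
Position of the 44 listed H3.3 regions along the 29 member genes, from annotated start (0%) to end (100%), with genes ordered by length. Up triangles are gained and down triangles lost regions, and colours mark the comparison; the overlapping pair is at Prkar1b, near 53% of its length.

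Most regions were intronic. Of the 44 H3.3 regions 40 were in introns, 2 in untranslated exons and 2 touched coding exons. At 1000 bp or less from an annotated transcript start there were 2 (4.55%), at Atp2b4 and Prkcd, beside 8.51% of all 4651 listed. Along the genes, 16 were in the first, 18 in the middle and 10 in the last part of equal length. In CATCH-IT 359 of 396 were intronic, 24 were in coding exons, and 15 (3.79%) were near a start, beside 5.62% of the list. Places in introns and exons, and parts along the gene, were not counted over the whole lists. Those counts therefore describe the members and do not set them apart from other genes.

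CATCH-IT regions were numerous and had few reads. In 385 of 396 member regions (97.2%, beside 97.7% of all listed) the lower group was at 0 in all 3 libraries, so the authors' deposited table gives an infinite fold change. The higher group held 8 to 50 reads over its 3 libraries, with a median of 17 for the 220 gained regions (57.3% of the whole list was gained) and 20 for the 176 lost. All 396 had an adjusted p under 0.05 in the authors' deposited table, as did 100% of the list. A finite ratio to input in both groups was given for 48 of the 396.

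The read numbers took preferred values. Among the 1188 library values above 0 of the members' higher groups, 246 were exactly 6 reads, against 39 of 5 reads and 66 of 7. These are 20.7%, 3.28% and 5.56%, beside 18.2%, 4.01% and 5.02% over the whole list. Another 213 of the members' values were exactly 12 reads, against 13 of 11 and 37 of 13. Over the whole list, 28472 of 159038 values were 12 reads, against 1336 of 11 and 5578 of 13. Multiples of 6 made up 39.4% of these values, beside 36.8% over the whole list and 14.9% to 21.7% in the H3.3 lists. In the third control library, 123 of 176 lost member regions (69.9%, beside 67.6%) had exactly 12 reads. Libraries with exactly 6 reads each made 18 gained regions (8.02, 3.20 and 16.3 normalised reads) and 15 lost regions (1.89, 8.32 and 7.10). The shares were 8.18% of the member gains, beside 5.18% of all gains, and 8.52% of the member losses, beside 8.85% of all losses. Without a library at a multiple of 6 reads, 77 gained and 6 lost member regions are left, 21.0% of the members beside 25.3% of the whole list. Region length was also uneven, with 192 of 396 (48.5%, beside 46.2%) exactly 380 bp long. The deposited list is named for duplicates and the number 6, without a source used here that says how duplicate reads were treated. The read numbers may therefore count copies of fewer fragments, which was not tested.

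**Figure D3:**
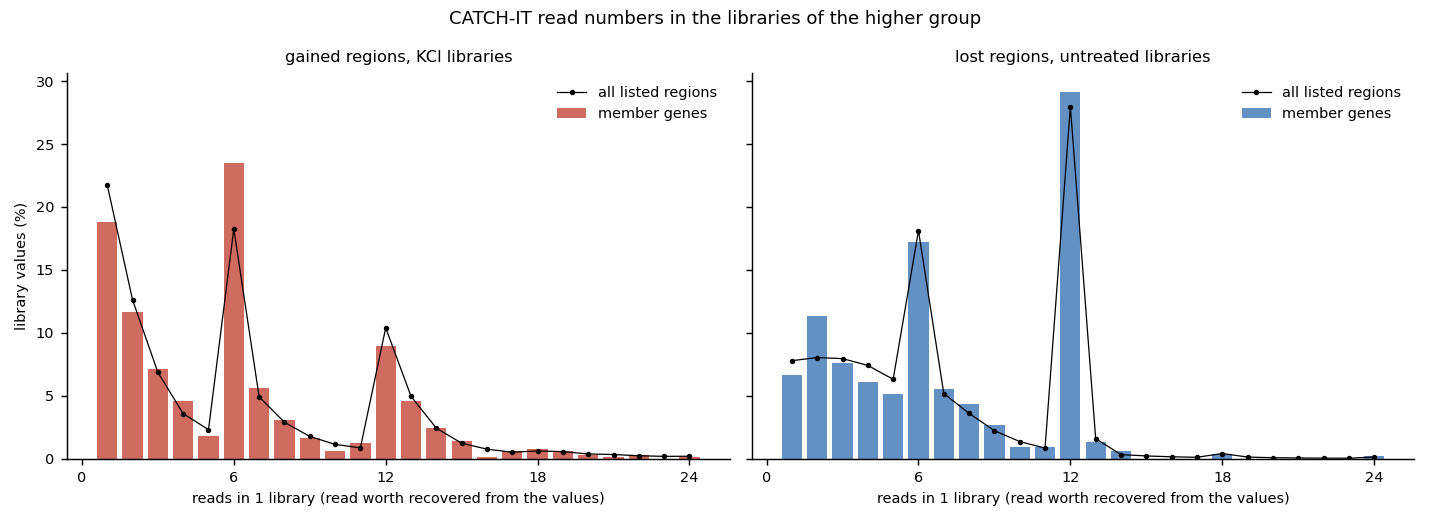
Share of library values (y axis, % of the values of the higher group's 3 libraries) with a given number of reads (x axis), for gained regions (left) and lost regions (right); values above 24 reads are not drawn. Bars are member genes and the black line all listed regions, and peaks stand at 6 and 12 reads in both.

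The gains and losses were mixed within genes. Of the 53 genes with CATCH-IT regions 44 had both directions. Among genes with 2 regions or more, both directions were listed for 86.3% of 51 members, beside 70.0% of 4520 genes over the whole list, and the number of regions per gene was not matched. Only gains were listed for 6: Camk1d (12), Nfatc1 and Plcg1 (4 each), Plcg2 and Itpr3 (2 each) and Ppp3cc (1). Only losses were listed for Pde9a (3), Ppp3cb (2) and Atp2a2 (1). At Prkacb a gained and a lost region overlapped by 140 bp, with 8.02, 3.20 and 24.5 normalised reads in the KCl libraries of the first and 1.89, 8.32 and 7.10 in the control libraries of the second. Such pairs numbered 155 over the whole list, which is 0.511% of all gained regions.

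**Figure D4:**
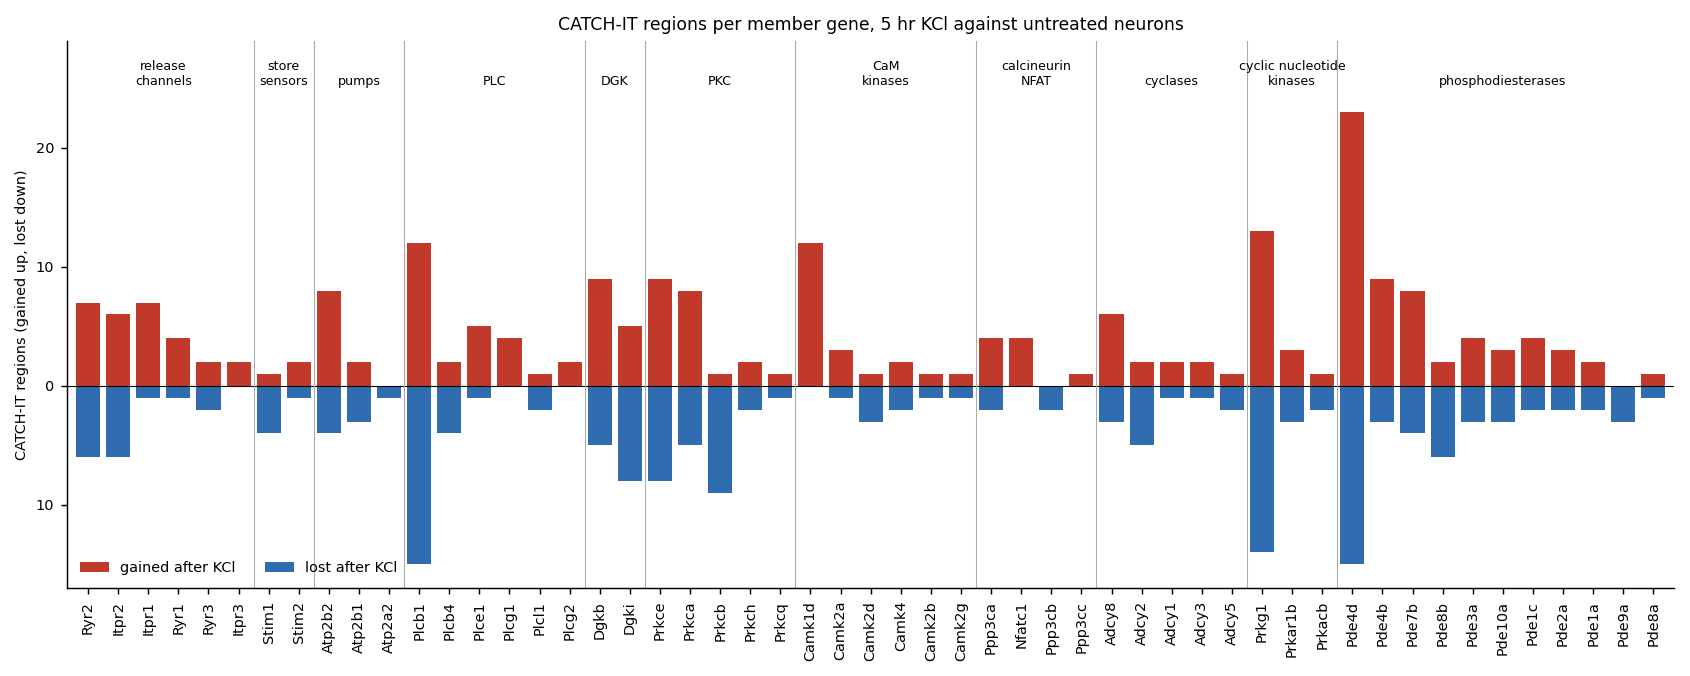
Number of CATCH-IT regions gained (red, up) and lost (blue, down) at the 53 member genes that had any, grouped by class. Pde4d, Plcb1 and Prkg1 have the longest bars, Camk1d has 12 gained and 0 lost, and Prkcb 1 and 9.

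The next examples, at Camk1d and Prkcb, were chosen after their values were seen. Within Camk1d, 7 of the 12 gained regions had 12 reads or more in the second KCl library, among them 2.67, 6.92 and 5.44 normalised reads at chr2:5255801-5256080. A pair, at chr2:5264281-5264660 and chr2:5612521-5612900, had the same 8.02, 3.20 and 16.3. Over all 30359 listed gains, the second KCl library had 12 reads in 23.2%, 13 in 11.8%, 14 in 5.17% and 15 in 1.86%. Such read numbers in that library were therefore not particular to Camk1d. The Prkcb losses were spread from 27.4% to 93.3% of the gene's length. The one with the most reads, chr7:129695221-129695720, had 2.52, 9.70 and 28.4 in the control libraries and 0 in the KCl libraries. Counted by the authors' names, Plcg1, an enzyme of growth factor signalling, had the most regions per length, 9.00 per 100 kb. Camk2a followed with 6.4 and Pde2a, a phosphodiesterase stimulated by cyclic GMP, with 5.49. These rates rest on 4, 4 and 5 regions, of which 3, 4 and 4 overlap the annotated gene. They are not comparable with the rates by overlap given below, and the order by overlap can differ.

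The smallest adjusted p of the CATCH-IT members, 4.15e-07 in the authors' deposited table, was shared by 48 regions, of which the 10 with the highest mean are described. Besides the Prkcb loss they include a coding exon of Dgki (28.1, 2.66 and 13.6 in the KCl libraries), introns of Pde4d (24.1, 2.13 and 16.3) and Pde7b (24.1, 1.60 and 16.3), Pde4b (18.7, 5.86 and 13.6) and Prkg1 (10.7, 6.92 and 19.03), and a coding exon of Ryr3 196 bp from a transcript start (22.7, 6.39 and 10.9). Itpr2, Prkacb and Ryr1 had identical values there, 8.02, 3.20 and 24.5. The control libraries were at 0 in all of these. Pde4b had the single member region near a start with reads in both groups, at 1.58, 0 and 0 in the control and 9.35, 3.20 and 16.3 in the KCl libraries.

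Longer genes had more regions. Over the 60 members Spearman's rho of gene length with the number of regions was 0.81, and over 22217 protein-coding genes 0.67; the points share libraries and are a description. Pde4d, at 1504 kb, had 38 regions, and Plcb1 and Prkg1 27 each. By overlap with the annotated gene, members held 2.57 regions per 100 kb, beside 2.34 over all protein-coding genes and 2.22 over those of 100 kb or more. Names and spans differ for some genes: Pde10a had 6 regions by the authors' name and 18 by its annotated span.

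**Figure D5:**
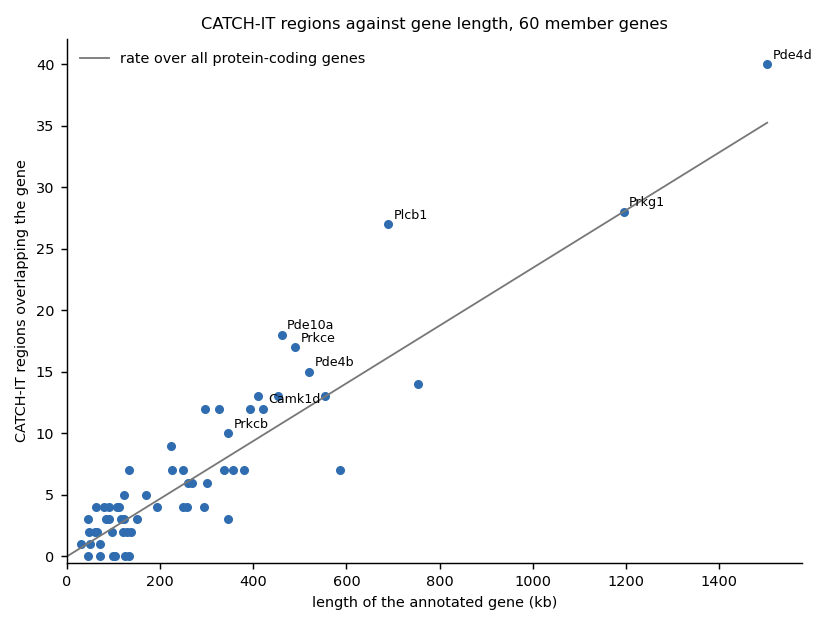
Number of CATCH-IT regions overlapping each of the 60 member genes (y axis) against the length of the annotated gene in kb (x axis). The line is the rate over all protein-coding genes, 2.34 regions per 100 kb, and Plcb1 with 27 regions stands above it.

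Few H3.3 regions lay close to CATCH-IT regions, at the members or in the whole lists. Of the 44 H3.3 member regions 0 overlapped a CATCH-IT region, beside 1.31% of all listed, a share at which fewer than 1 of 44 would do so. Another 1 was within 1000 bp, beside 5.74% of all listed, and 5 were within 5000 bp (23.0% of all listed). The nearest was at Atp2b2, where the region listed as gained at 5 hr is 541 bp from a gained CATCH-IT region that had 9.35, 3.20 and 16.3 in the KCl libraries and 0 in the control. Nfatc1 had gains of both kinds 1341 bp apart, and the NeuN-positive gain of Prkcd is 2001 bp from a CATCH-IT gain to which the authors gave no gene; both H3.3 regions came from hippocampus. Prkcb had losses of both kinds 2901 bp apart, the H3.3 loss in NeuN-negative nuclei. Camk1d had an H3.3 loss in NeuN-positive nuclei 1181 bp from a CATCH-IT gain. Only the Atp2b2 pair had both regions from 5 hr cortical cultures, and the others set hippocampus beside cultures. The direction was the same in 4 of these 5, beside 49.7% of the 1072 such regions over the whole lists.

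Further genes of the pathways were 93 by a list set by function, of which 92 were found by name in the annotation. They had 20 H3.3 regions at 16 genes. Of these, 11 gained and 6 lost passed the authors' adjusted p, as did 85.1% of all 4651 listed. NeuN-positive nuclei held 7 gains and 1 loss, beside 71.8% gained and 28.2% lost over that list. Among the gains were Rcan1, at a pair of places, and Rcan2, which encode inhibitors of calcineurin, Pkib, an inhibitor of protein kinase A, Prkar2a, a regulatory subunit of it, and Akap7, an anchoring protein. Log2 fold changes of these were 1.78 to 2.39 in the authors' deposited table. Akap6, another anchoring protein, was lost, as it was at 30 min. Prkd1, a kinase downstream of protein kinase C, was lost at 2 hr and gained in NeuN-positive nuclei. NeuN-negative nuclei held 3 gains, at Akap7, Camkk1 and Plcd4, and 1 loss, beside 70.7% and 29.3% of that list. The loss was at Gnaq, the G protein that activates phospholipase C, with a log2 fold change of -3.81 in the authors' deposited table. In CATCH-IT the 93 genes had 89 gained and 77 lost regions, beside 57.3% and 42.7% of the list.

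Motif letters of the pathways' transcription factors were counted in the 44 H3.3 regions on both strands. The CRE letters TGACGTCA were in 0 (0.0645% of all listed) and their core ACGTCA, which lies inside them, in 0 (2.04%). The AP-1 letters TGANTCA were in 3 (6.82%, beside 6.71%), at Atp2b4, Prkar1b and Prkca. All of these were listed as lost after KCl, Atp2b4 and Prkar1b at 30 min and Prkca at 5 hr. Losses were also the larger share of those whole lists, 79.9% at 30 min and 55.8% at 5 hr. The Prkca region did not pass the authors' adjusted p. A link between these letters and the direction was not tested. The NFAT core GGAAA was in 21 (47.7%, beside 50.2%). GC content had a median of 49.3% in gained and 48.0% in lost member regions, beside 50.0% and 46.0%. In 37 of 44 regions no 32-base word had a copy elsewhere (84.1%, beside 79.7% of all listed).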

How the data were processed

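Of 66 labelled samples, those behind 7 lists of regions were used, and the HA and embryonic libraries were not analysed here. The submitters' processing notes name the build mm9, Bowtie 0.12.7 and bedtools 2.16.2, without saying what each step did. No source used here names the region caller. The deposited signal values are the authors' normalised read numbers per library and their group means, as deposited. The authors' deposited ratio divides a group by its input and is infinite where input is 0. The log2 fold changes and the p-value columns, raw and adjusted, are the authors', per the file headers. No test of differences was run here.

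Rows were matched to genes by the authors' gene names. Regions were counted by direction and placed on the mm9 annotation with Python 3.11.15, pandas 2.3.3 and numpy 2.4.6. The number of reads behind a value was recovered from the smallest step of its library, which was worth 0.316 to 2.72 normalised reads over all lists but H3.1/2. This step was tested on simulated data. Promoters are within 1000 bp of an annotated start. Figures were drawn with matplotlib 3.10.9.

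The named regions are every H3.3 member region, with every library value for those at an adjusted p of 0.05 or less (at most 12 a list) and a range for the rest. In CATCH-IT they are the 10 smallest adjusted p (ties by the larger group mean), starts with reads in both groups, regions within 1000 bp of an H3.3 member region, and the 3 genes with the most regions in number and per 100 kb. The members and lists were chosen with earlier results of these data known. Alternatives were the adjusted p, a 4-fold margin, the ratio to input, wider windows and leaving out each value. The sequence of 1 named region is not reported here.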

Additional observations from a re-analysis of the deposited data

Results flagged for a closer look

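Itpr1 was marked because enriched housing went with opposite directions in the sorted populations. The authors' deposited tables give a log2 fold change of -1.67 in NeuN-positive nuclei and 4.28 in NeuN-negative nuclei. Every enriched library was below every normally housed library at the first place and above at the second, but the groups are apart in all 4651 listed H3.3 regions. The NeuN-positive region was under 3-fold without the second normally housed value. The NeuN-negative region rests on 1 read against 19. The places are 19.96 kb apart, so no single stretch of DNA went both ways, and the difference between the populations was not tested. Of the 302 genes in 2 or more H3.3 lists of any kind, all regions went the same way in 47.4%.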

How the results depend on the processing

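Of 124 alternatives to 16 counts of member regions, 105 left the count within 1.5 times and 19 did not. Some of them could barely move a count. In CATCH-IT the lower group was at 0 in 385 of 396 member regions, so fold margins and left-out values changed little there. The adjusted p passed for 100% of that list. The 105 are therefore no measure of how firm the counts are. With a 4-fold margin, the count of losses went from 7 to 2 at 30 min, from 3 to 1 at 5 hr and from 6 to 1 in NeuN-positive nuclei. Gains went from 2 to 1 at 2 hr, from 3 to 0 at 5 hr and from 10 to 3 in NeuN-positive nuclei. At an adjusted p of 0.05 the 5 hr counts were 0 gained and 0 lost. With a 2-fold change relative to input, losses at 30 min went to 3, gains at 5 hr to 1, and CATCH-IT to 26 gained and 22 lost; regions without a finite ratio drop out, among them 2 of the 4 losses removed at 30 min (Atp2b4 and Prkce). Without multiples of 6 reads, an alternative chosen after seeing the data, CATCH-IT kept 77 gained and 6 lost. Wider windows gave 26 CATCH-IT regions near a start (2000 bp) and 5 H3.3 regions near CATCH-IT (5000 bp).

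Leaving out 1 value at a time gave 3 to 7 losses at 30 min, 1 to 2 gains at 2 hr and 6 to 10 gains in NeuN-positive nuclei. No paired analysis was possible because the packed values carry no library names. Depth limits the NeuN-negative and CATCH-IT values most, with 18 to 28 and 8 to 50 reads in the higher group.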
